A study of Mus musculus with 6 samples.

Results

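The nuclear genes for respiratory complexes III and IV, for cytochrome c and for ATP synthase were examined in the ventricles of sham and atrially paced mice. Members were all rows of the per-mouse table whose symbol begins with Uqcr, with Cox followed by a digit from 4 to 8, or with Atp5, together with Cyc1 and Cycs. This gave 45 of 24239 rows, with 9 in complex III, 1 for cytochrome c, 18 in complex IV and 17 under the ATP synthase names. The samples were ventricles of male C57BL/6 mice aged 8 to 10 weeks, with 3 mice per group, and the labels name no transgene or mutation in either group. Paced mice had a bipolar catheter in the esophagus, close to the atria, and were driven for 45 min per session with 80 ms between beats, after and before 3 min at 120 ms. Sessions ran for 5 days, stopped for 2 days and resumed for 3 days, while the sham controls were not paced, and the labels do not say whether they received a catheter. Expression is given as FPKM, sequenced fragments of polyA RNA scaled by transcript length and library size, so that levels can be set side by side between genes of different length.

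Complex III passes electrons from ubiquinol to cytochrome c, complex IV passes them from cytochrome c to oxygen, and both pump protons across the inner mitochondrial membrane. ATP synthase lets the protons flow back through a rotor of c subunits and uses the rotation to make ATP. The heart depends on this pathway for nearly all of its ATP, and several complex IV subunits exist as a heart and muscle isoform and a ubiquitous isoform from separate genes. The catalytic core subunits of complex IV and a few other subunits are encoded in mitochondrial DNA. None of the 6 mitochondrial genes listed for these complexes is a row of the per-mouse table, and they were not analysed here.

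Effective library depth, read from the steps between the lowest values, ran from 6278000 fragments in sham 3 to 8914000 in pacing 3, and the sum of FPKM from 658676.6 in pacing 3 to 756507.4 in sham 3. The shallowest library therefore had the highest FPKM sum and the deepest the lowest. All 18 cardiomyocyte markers were present and had a lower mean in paced mice, with a summed level of 109932 to 140810 FPKM in sham and 106979 to 109783 in paced ventricles. Atrial markers were present too, with a summed level of 12627, 424 and 5280 FPKM in sham 1, 2 and 3. In pacing 1, 2 and 3 they summed to 5714, 14615 and 10434 FPKM. The 9 lung and airway markers summed to 0.482 to 4.98 FPKM in sham mice, where 5 of them were listed at the floor value in every mouse, and to 2.46, 315 and 1728 FPKM in pacing 1, 2 and 3. The 6 white fat markers summed to 166, 14.1 and 8.91 FPKM in sham 1, 2 and 3 and to 314, 203 and 177 FPKM in pacing 1, 2 and 3. Sham 1 thus stood apart from the other sham mice in fat markers. Among sham mice it also held the highest level of atrial markers and the lowest of cardiomyocyte markers.

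Subunit transcripts stood slightly lower in paced ventricles across all the complexes, and no single gene passed the test. Of 45 members, 43 had a mean of at least 1 FPKM and were tested. Their paced mean was lower in 39 and higher in 4, against 51.8% of all 11994 tested genes with a lower mean, and the median log2 change was -0.14 against -0.01 over all tested genes. The direction depends on the scale: with each mouse centred on its cardiomyocyte markers, 5 members were lower and 38 higher, with a median of 0.084, while the median of all tested genes moved to 0.22. In limma with Benjamini-Hochberg adjustment, 0 of 43 members had an adjusted p under 0.05, as did 0% of all tested genes, and the lowest member value was 0.399. At an unadjusted p under 0.05, 3 members were lower and 1 was higher, against 3.69% and 5.17% of all tested genes. Every paced mouse lay below every sham mouse in 9 members and above in 1, against 6.97% and 6.24% of all tested genes. In the authors' deposited table, 0 of 45 members were called at a q-value under 0.05, where 1.38% of all its rows were, and the lowest member q-value was 0.501. At a q-value under 0.01 it was again 0 of 45, against 0.871% of all rows.

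The summed level of all members was 78917, 85121 and 92687 FPKM in sham 1, 2 and 3 and 79182, 78256 and 73070 FPKM in pacing 1, 2 and 3. Sham 1 lay inside the range of the paced mice, and the groups overlapped. As a share of all FPKM in the library, the members held 11.74%, 12.01% and 12.25% in sham 1, 2 and 3 and 11.71%, 11.38% and 11.09% in pacing 1, 2 and 3. On this relative scale all paced mice lay below all sham mice, with sham 1 and pacing 1 close together. Sham 3 had the highest value of the 6 mice in 30 of 43 tested members and pacing 3 the lowest in 26. Sham 1 lay between the lowest and highest paced mouse in 23 members, above all of them in 13 and below all of them in 7. Library depth and FPKM sum move with these extremes. With all mice rescaled to the same FPKM sum, 35 members were lower and the median log2 change was -0.064, while the median of all tested genes moved to 0.062. The part of depth was not tested. Without sham 1, 14 members were lower and 2 higher at an unadjusted p under 0.05 and the lowest limma adjusted p was 0.187. Calls were also more frequent among all tested genes in that setting, at 6.12% lower and 8.3% higher. With only 2 sham mice left, 26 members had no overlap on the lower side, against 16.5% of all tested genes. In whole tissue, fewer cardiomyocytes and less RNA per cardiomyocyte cannot be told apart.

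**Figure D1:**
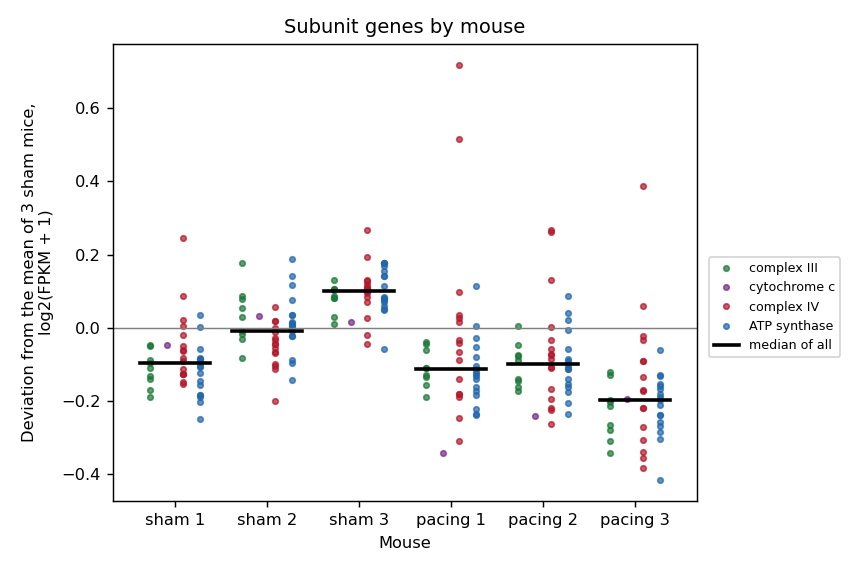
Deviation of each tested member from its mean in the 3 sham mice, on the log2(FPKM + 1) scale, for the 6 mice; points are genes coloured by complex and black bars are medians. The median lies at -0.10 in sham 1, -0.01 in sham 2 and 0.10 in sham 3, and at -0.11, -0.10 and -0.20 in pacing 1, 2 and 3.

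All 9 complex III genes had a lower mean in paced mice, with log2 changes from -0.19 to -0.08 and a median of -0.16, and 0 passed the adjusted threshold. Uqcrfs1, the Rieske iron-sulfur protein that takes electrons from ubiquinol, stood at 869.8, 989.7 and 958 FPKM in sham 1, 2 and 3 and at 822, 847 and 808 FPKM in pacing 1, 2 and 3. Its groups did not overlap, although sham 1 exceeded the highest paced mouse only slightly (log2 change -0.18, SE 0.09, limma adjusted p = 0.604). The core protein gene Uqcrc2 stood at 851, 1098 and 978 FPKM in sham and at 871, 869 and 808 FPKM in paced mice, with sham 1 inside the paced range. Uqcr10, a small supernumerary subunit, stood at 1485, 1507 and 1626 FPKM in sham and at 1407, 1446 and 1343 FPKM in paced mice, without overlap. Uqcrh, the acidic hinge protein that helps dock cytochrome c, was the most abundant gene of the complex. It stood at 2756, 2894 and 3153 FPKM in sham and at 2809.6, 2659 and 2695 FPKM in paced mice, and its groups overlapped. Cyc1, the heme protein cytochrome c1, had a log2 change of -0.16 with SE 0.10.

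Cytochrome c, which carries electrons between complexes III and IV and is encoded by Cycs, stood lower in every paced mouse. It stood at 543, 573 and 566 FPKM in sham 1, 2 and 3 and at 442, 474 and 489.6 FPKM in pacing 1, 2 and 3. The groups did not overlap, sham 1 included, and the mean was 561 ± 15.7 against 469 ± 24.3 (SD, n = 3 each). The log2 change was -0.26 with SE 0.08, an unadjusted p of 0.0115 and a limma adjusted p of 0.473. It was negative in all 19 alternative settings, from -0.34 to -0.03, with the smallest size when mice were centred on cardiomyocyte markers. In mm10, Cycs lies on the minus strand of chromosome 6 from 50562563 to 50566538, and 3 pseudogenes with near-identical sequence are annotated elsewhere, so that part of its fragments could have been placed on copies.

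Complex IV held both the most negative and the most positive log2 changes of the tested members. Of 18 genes, 16 were tested, with 13 lower and 3 higher means and a median log2 change of -0.13. Cox7a1, the heart and muscle form of subunit 7a, was the most abundant of all members. In mm10 it lies on the plus strand of chromosome 7 from 30184144 to 30186078. It stood at 5085, 5144 and 5713 FPKM in sham 1, 2 and 3 and at 4473, 4424 and 4197 FPKM in pacing 1, 2 and 3, with no overlap. The paced mean was 82.1% of the sham mean (log2 change -0.28, SE 0.10, unadjusted p = 0.0249, limma adjusted p = 0.511). Cox5a, a structural subunit on the matrix side, stood at 1643, 1636 and 1826 FPKM in sham and at 1501, 1459.7 and 1303 FPKM in paced mice, again with no overlap (log2 change -0.26, SE 0.10, limma adjusted p = 0.523). Cox6b1, the general form of the subunit that faces the intermembrane space, also showed no overlap, with a log2 change of -0.24 and SE 0.11. At the other end, Cox7c, Cox7a2l and Cox6c had log2 changes of -0.049, -0.041 and -0.073, each smaller than its SE. Cox7a2l encodes a relative of subunit 7a.

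Cox6b2, the isoform of subunit 6b known from testis, had the largest log2 change in size of any tested member, with a higher paced mean. It stood at 6.91, 6.70 and 7.03 FPKM in sham 1, 2 and 3 and at 11.96, 8.49 and 9.29 FPKM in pacing 1, 2 and 3. Every paced mouse lay above every sham mouse (log2 change 0.46, SE 0.12, unadjusted p = 0.00518, limma adjusted p = 0.399). The level is low beside the general form Cox6b1 and rests on about 12 to 26 fragments per mouse by the annotated transcript length. At the lowest of these the coefficient of variation from counting alone is about 29.1%. The sham values lay closer together than that. The change was positive in all 19 alternative settings, from 0.33 to 0.72, and the lowest adjusted p among them was 0.154. Cox7b2, a testis form of subunit 7b, had values of at most 1.26 FPKM and did not reach the filter. Cox8c was listed at the floor value in every mouse.

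**Figure D2:**
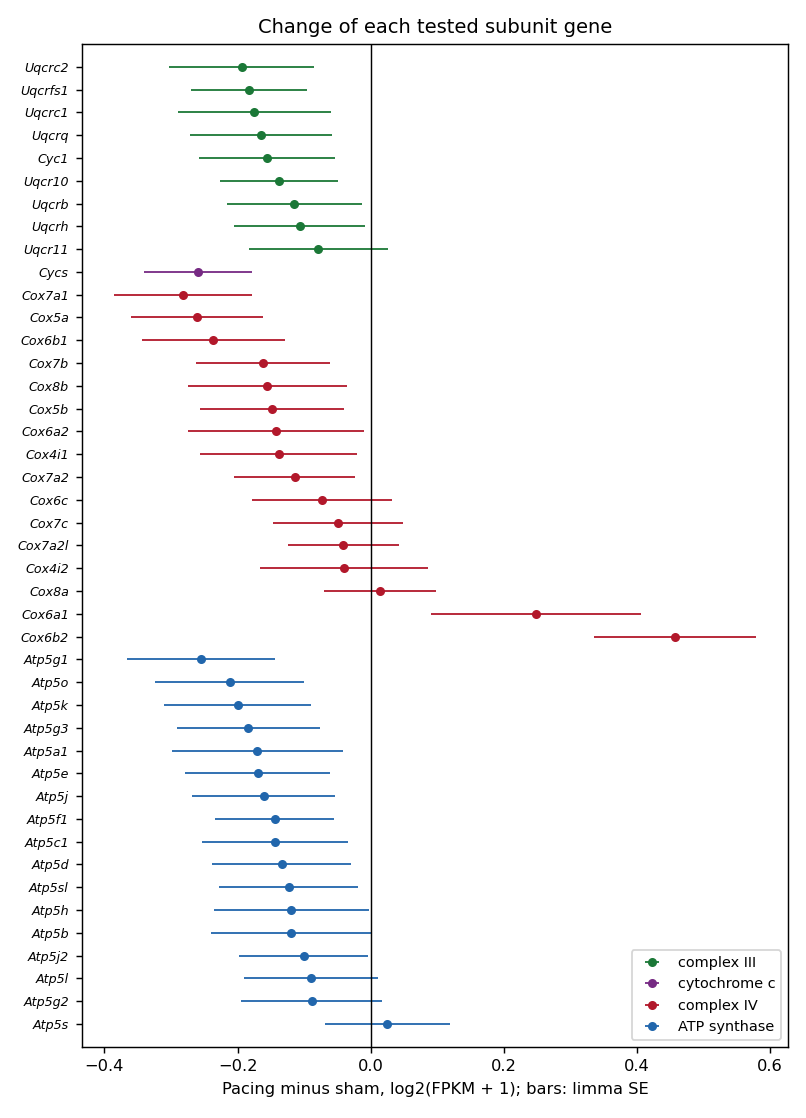
Log2 change of pacing minus sham for the 43 tested members, grouped by complex, with limma standard errors as bars. Most points lie between -0.28 and 0, and Cox6a1 and Cox6b2 lie to the right of 0 at 0.25 and 0.46.

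The 3 pairs of heart and ubiquitous isoforms in complex IV all had a smaller mean share of the heart form in paced mice, and none passed the test. The heart forms Cox6a2, Cox7a1 and Cox8b summed to 12725 ± 1235 FPKM in sham and 11032 ± 507 FPKM in paced mice (SD, n = 3 each), with the paced mean at 86.7% of sham. The ubiquitous forms Cox6a1, Cox7a2 and Cox8a summed to 1658 ± 104 and 1629 ± 104 FPKM, with the paced mean at 98.2% of sham. The groups overlapped in the ubiquitous sum but not in the heart sum, where the lowest sham mouse stood at 11849 and the highest paced mouse at 11458 FPKM. With 3 mice per group an exact two-sided permutation test cannot give a p below 0.1, and the 5 isoform ratios tested all had an adjusted p of 0.375 or more. The ratios hardly depend on how a library is scaled, since both genes are measured in the same mouse. They do not account for the mix of cells in whole tissue. Cardiomyocyte and endothelial markers had lower means in paced mice, and fibroblast and macrophage markers higher means. The part of cell mix in the ratios was not tested.

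Subunit 7a separated the groups without overlap. Cox7a2, the ubiquitous form, stood at 986, 933 and 1085 FPKM in sham 1, 2 and 3 and at 955, 927 and 888 FPKM in pacing 1, 2 and 3, with overlap, beside the values of Cox7a1 given above. The log2 ratio of Cox7a1 to Cox7a2 was 2.37, 2.46 and 2.40 in sham and 2.23, 2.25 and 2.24 in paced mice. The difference was -0.17 (exact permutation p = 0.1, the smallest possible, adjusted p = 0.375 over 5 ratios), and all 3 paced mice lay below all 3 sham mice, sham 1 included. In shares of the pair, Cox7a1 made up 84.2% ± 0.453 in sham and 82.5% ± 0.131 in paced mice (SD, n = 3 each). Leaving out 1 mouse at a time gave differences from -0.19 to -0.14. Whether cell mix moved this ratio was not tested.

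For subunit 6a the mean of the ubiquitous form was higher and that of the heart form lower in paced mice, neither passing the test. Cox6a2, the heart form, stood at 3576, 3676 and 4781 FPKM in sham 1, 2 and 3 and at 3508, 3777 and 3529 FPKM in pacing 1, 2 and 3, where sham 3 stands apart and the other mice overlap. Cox6a1, the ubiquitous form, stood at 269, 197 and 220.0 FPKM in sham and at 325, 272 and 222 FPKM in paced mice, with sham 1 close to pacing 2. The log2 ratio was 3.73, 4.21 and 4.44 in sham and 3.43, 3.79 and 3.99 in paced mice, so that the groups overlapped (difference -0.39, exact permutation p = 0.3, adjusted p = 0.375). The log2 change of Cox6a1 was 0.25 with SE 0.16, and it turned to -0.16 with an adipocyte covariate, the mean log2 level of Adipoq, Plin1 and Cidec. In each group it was highest in the mouse with the most white fat transcripts, sham 1 and pacing 1, and this covariate cannot be told apart from the groups, whose white fat sums given above do not overlap. In mm10, Cox6a2 lies on the minus strand of chromosome 7 from 128205435 to 128206387 and overlaps Itgad on the opposite strand. The deposited locus of Cox6a2 runs from 128173945 to 128206366, far wider than the gene. Cox6a1 lies on the minus strand of chromosome 5 from 115345642 to 115348981.

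Subunit 8 followed the same direction with more overlap. Cox8b, the heart and muscle form, stood at 3187, 3369 and 3643 FPKM in sham 1, 2 and 3 and at 3478, 2964 and 2746 FPKM in pacing 1, 2 and 3. Cox8a, the ubiquitous form, stood at 454, 408 and 422 FPKM in sham and at 458, 418 and 421 FPKM in paced mice, and the ranges overlapped almost fully. The log2 ratio of Cox8b to Cox8a was 2.81, 3.04 and 3.11 in sham and 2.92, 2.82 and 2.70 in paced mice (difference -0.17, exact permutation p = 0.3, adjusted p = 0.375). Sham 1 lay below pacing 1 and pacing 2, and the groups overlapped. Cox7a1 and Cox8b are also strongly expressed in brown fat. The 5 brown fat markers summed to 71.6, 45.4 and 41.3 FPKM in sham 1, 2 and 3 and to 152, 83.5 and 39.2 FPKM in pacing 1, 2 and 3. The mouse with the most brown fat transcripts had the highest Cox8b among paced mice and the lowest among sham mice, and the part of brown fat was not tested.

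**Figure D3:**
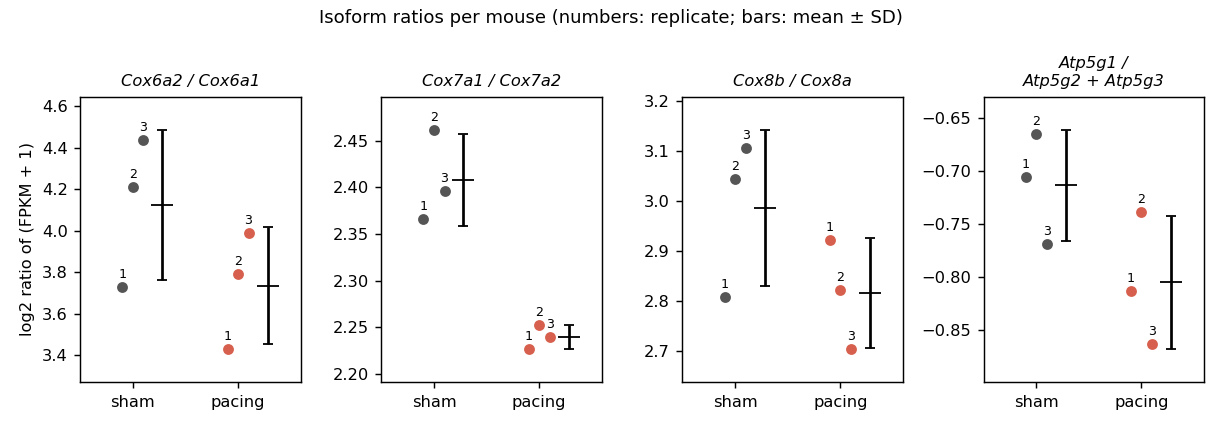
Log2 ratio of the heart isoform to the ubiquitous isoform of subunits 6a, 7a and 8, and of Atp5g1 to the sum of Atp5g2 and Atp5g3, for each mouse with its replicate number; bars are mean ± SD of 3 mice, and each panel has its own vertical scale that does not start at 0. The Cox7a1 panel alone has no overlap, with sham mice from 2.37 to 2.46 and paced mice from 2.23 to 2.25.

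The sequence of the 250 bases before each annotated start is shown for both isoforms of subunits 7a and 8, to set heart and ubiquitous promoters side by side, and for Cox6a1 alone of subunit 6a. The sequences are from RefSeq (GRCm38.p6), 5′ to 3′ on the strand of the gene, with every CG pair in capitals, since clusters of CG pairs mark the promoters of most housekeeping genes. They come from chr7:30183921-30184170 on the plus strand for Cox7a1, chr9:79759854-79760103 on the minus strand for Cox7a2 and chr7:140900447-140900696 on the minus strand for Cox8b. Those of Cox8a and Cox6a1 come from chr19:7217617-7217866 and chr5:115348959-115349208, both on the minus strand.
Cox7a1: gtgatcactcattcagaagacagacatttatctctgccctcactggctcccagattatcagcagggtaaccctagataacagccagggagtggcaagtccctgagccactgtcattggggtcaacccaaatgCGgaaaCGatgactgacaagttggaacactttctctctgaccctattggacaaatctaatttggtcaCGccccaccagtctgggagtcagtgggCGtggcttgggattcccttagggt
Cox7a2: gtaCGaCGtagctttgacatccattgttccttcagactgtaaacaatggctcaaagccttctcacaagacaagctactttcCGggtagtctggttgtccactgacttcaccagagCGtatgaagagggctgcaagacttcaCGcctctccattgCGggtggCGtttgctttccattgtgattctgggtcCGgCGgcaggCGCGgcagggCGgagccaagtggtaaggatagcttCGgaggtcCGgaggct
Cox8b: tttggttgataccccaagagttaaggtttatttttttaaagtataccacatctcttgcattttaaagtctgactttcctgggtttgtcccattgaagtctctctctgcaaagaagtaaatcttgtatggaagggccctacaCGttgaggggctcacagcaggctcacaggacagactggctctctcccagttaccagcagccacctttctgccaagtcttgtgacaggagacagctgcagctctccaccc
Cox8a: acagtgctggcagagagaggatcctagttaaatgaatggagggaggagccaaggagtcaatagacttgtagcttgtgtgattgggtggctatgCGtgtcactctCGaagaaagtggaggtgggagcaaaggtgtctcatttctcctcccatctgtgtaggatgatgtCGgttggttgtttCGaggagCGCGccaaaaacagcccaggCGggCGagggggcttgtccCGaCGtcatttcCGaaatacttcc
Cox6a1: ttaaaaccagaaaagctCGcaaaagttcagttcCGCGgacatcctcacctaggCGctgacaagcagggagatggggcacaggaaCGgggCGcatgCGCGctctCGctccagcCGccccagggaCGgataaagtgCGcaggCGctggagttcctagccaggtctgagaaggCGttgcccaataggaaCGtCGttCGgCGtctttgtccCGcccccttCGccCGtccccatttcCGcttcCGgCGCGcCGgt
The heart form Cox7a1 has 4 CG pairs in this stretch and Cox7a2 has 14, while Cox8b has 1 and Cox8a has 11. Cox6a1 has 26. Over the window from 250 bases before to 50 after the start, the 35 members found in the table had a median of 19 CG pairs, against 8 for all 27025 genes with a window.

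Motif letters of factors known to act on nuclear respiratory genes were counted in the same windows on both strands. The palindromic NRF1 motif occurred in 8 of 35 members (22.9%) and in 5.2% of all genes with a window. The GABP letters CCGGAAG occurred in 10 members (28.6%) against 9.9% of all genes, and the YY1 letters AANATGGCG in 4 members (11.4%) against 2.8%. The estrogen-related receptor letters AAGGTCA occurred in 4 members (11.4%) against 5.4%, and the SP1 letters GGGCGG in 13 members (37.1%) against 38.2%. Among muscle motifs, a loose MEF2 pattern, with any base allowed at its central positions, occurred in 1 member against 4.2% of all genes. Whether these matches are MEF2 sites was not tested. The E-box CAGCTG occurred in 2 members, Cox8b among them, against 18.3%. Cox6a1 holds 2 NRF1 matches, 1 GABP match and 2 SP1 matches, and Cox7a1 holds none of the 7 motifs. Overlaps between different motifs were not removed, and a match describes letters in the window only. A window with few CG pairs has fewer chances to hold the motifs that contain CG. 

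The genes under the ATP synthase names had lower means in 16 of 17 cases, with a median log2 change of -0.14. In the catalytic head, Atp5b, which encodes the catalytic beta subunit and was the most abundant gene of the enzyme, stood at 4027, 5024 and 4911 FPKM in sham 1, 2 and 3 and at 4311, 4453 and 4041 FPKM in pacing 1, 2 and 3. Sham 1 was the lowest of all 6 mice in Atp5b, and the log2 change was -0.12 with SE 0.12. The alpha subunit gene Atp5a1 had a log2 change of -0.17 with SE 0.13, the gamma subunit gene Atp5c1 -0.14 with SE 0.11 and the delta subunit gene Atp5d -0.13 with SE 0.10. In the stalk, Atp5o, which joins the head to the membrane part, stood at 2148, 2508 and 2727 FPKM in sham and at 2079.7, 2189 and 2077 FPKM in paced mice, with sham 1 inside the paced range (log2 change -0.21, SE 0.11, limma adjusted p = 0.645). Atp5k, a small membrane subunit involved in dimer formation, stood at 3684, 3652 and 4408 FPKM in sham and at 3432, 3382 and 3370.3 FPKM in paced mice, without overlap (log2 change -0.20, SE 0.11, limma adjusted p = 0.654). Atp5sl and Atp5s, whose RefSeq symbols are now Dmac2 and Dmac2l, carry older ATP synthase names. They were far less abundant, with log2 changes of -0.12 and 0.03, and without them 38 of 41 tested members were lower.

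The 3 genes Atp5g1, Atp5g2 and Atp5g3 encode the same mature c subunit behind different import sequences. Atp5g1 had the smallest p of the enzyme and stood at 2374, 2622 and 2686 FPKM in sham 1, 2 and 3 and at 2168, 2367 and 1917 FPKM in pacing 1, 2 and 3. The groups touched without overlapping (log2 change -0.25, SE 0.11, unadjusted p = 0.0505, limma adjusted p = 0.563). Atp5g3, the most abundant of them, stood at 3093, 3302 and 3595 FPKM in sham and at 3017, 3084 and 2692 FPKM in paced mice, also without overlap. Atp5g2 stood at 780.3, 855 and 983 FPKM in sham and at 793, 865 and 795 FPKM in paced mice, with overlap. Together the c subunit genes stood at 6764 ± 509 FPKM in sham and 5900 ± 461 FPKM in paced mice (SD, n = 3 each), and sham 1 at 6247 lay below pacing 2 at 6317. The log2 ratio of Atp5g1 to the sum of the other genes differed by -0.09 (exact permutation p = 0.2, adjusted p = 0.375), with overlap between the groups.

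Cox4i2, the lung-rich isoform of subunit 4 that responds to oxygen, was far less abundant than the general form Cox4i1. Cox4i2 stood at 16.4, 18.8 and 19.0 FPKM in sham 1, 2 and 3 and at 14.4, 19.8 and 18.8 FPKM in pacing 1, 2 and 3. Cox4i1 stood at 3097, 3331 and 3922 FPKM in sham and at 3119, 3296 and 2952 FPKM in paced mice. The ratio differed by 0.10 on the log2 scale (exact permutation p = 0.6), with overlap. Pacing 2 and pacing 3, the mice with lung markers, had Cox4i2 levels close to those of sham 2 and sham 3, whose lung markers summed to 0.482 and 1.34 FPKM. Pacing 1, whose lung markers summed to 2.46 FPKM, had the lowest Cox4i2 level of all mice. The part of lung tissue was not tested.

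Most genes of the rest of the pathway also had lower means, and 0 genes in these lists had a limma adjusted p under 0.05, as did 0% of all tested genes. Of all tested genes, 51.8% had a lower mean and 3.69% were lower at an unadjusted p under 0.05. Of 38 genes taken as complex I subunits by their Nduf names alone, Ndufa4 and Ndufa4l2 included, 36 had a lower mean. At that p 3 of them were lower, and their median log2 change was -0.13. All 4 complex II genes were lower, with a median of -0.14. Of 22 tested assembly factors of complex IV, 19 were lower, with a median of -0.16 and 3 lower at an unadjusted p under 0.05. The smallest p among them was that of Higd1a, a hypoxia-induced factor that binds complex IV, at 96.3 ± 2.36 and 82.0 ± 3.55 FPKM (SD, n = 3 each; limma adjusted p = 0.476). All 6 assembly factors of complex III and all 5 assembly factors and regulators of ATP synthase were lower, with medians of -0.13 and -0.14. Lower too were all 7 genes for phosphate and ATP carriers, outer membrane channels and the creatine kinase Ckmt2, with a median of -0.16. Of 16 regulators of respiratory genes, 12 were lower, with a median of -0.10 and 0 at an unadjusted p under 0.05. Ppargc1a, the coactivator of mitochondrial biogenesis, had a log2 change of -0.11 with SE 0.14, and Nrf1 of 0.15 with SE 0.10.

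Other lists, most of them outside the pathway, had medians on both sides of those of the subunit genes. Cytosolic ribosomal protein genes, another large set of short abundant transcripts, were lower in 33 of 80 tested genes with a median of 0.02. Of 206 other genes with a mean of at least 500 FPKM, a level chosen after the values were seen, 149 were lower, with a median of -0.078. That list leaves out only the members, so it still holds other genes of the pathway, such as Ndufa4 and Sdhb, and cardiomyocyte markers. All 36 members above the same level were lower, with a median of -0.15, and of the 7 tested members below it 3 were lower. The 18 cardiomyocyte markers had a larger median than the members, -0.21, and 4 of them were lower at an unadjusted p under 0.05, against 3.69% of all tested genes. Endothelial markers were lower in 6 of 6, with a median of -0.18, 2 at an unadjusted p under 0.05 and a summed level of 292 to 330.2 FPKM in sham and 259 to 296 FPKM in paced mice. Fibroblast markers were higher in 6 of 6, with a median of 0.42 and a summed level of 750 to 966 FPKM in sham and 948 to 1253 FPKM in paced mice. White fat markers were higher in 6 of 6, and macrophage markers in 6 of 6 found, with a summed level of 248 to 392 FPKM in sham and 370 to 494 FPKM in paced mice. These lists move with the groups, and their part in the lower subunit levels was not tested. With the adipocyte covariate, 29 members were lower and 14 higher, with a median of -0.028.

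**Figure D4:**
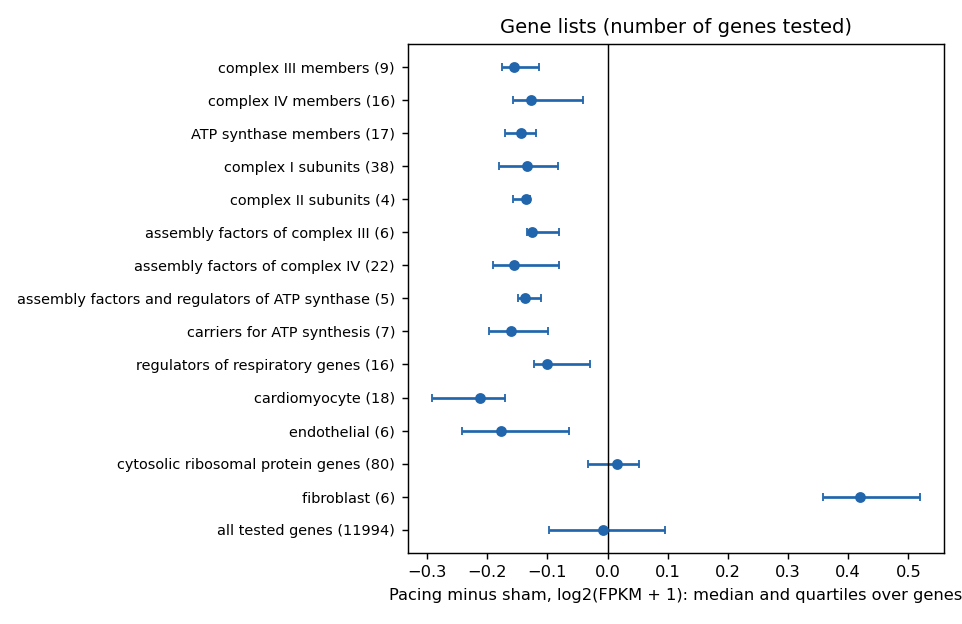
Median and quartiles over genes of the log2 change, pacing minus sham, for each list, with the number of genes tested. The respiratory lists have medians between -0.16 and -0.10, cardiomyocyte markers -0.21, ribosomal protein genes 0.02 and fibroblast markers 0.42.

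Relative to cardiomyocyte markers most subunit genes had a higher mean in paced mice. The mean log2 level of tested members minus that of the markers was -1.12, -1.34 and -1.20 in sham 1, 2 and 3 and -1.09, -1.14 and -1.12 in pacing 1, 2 and 3. The paced mice and sham 1 lay close together and above sham 2 and sham 3. On this scale 5 members kept a negative log2 change. Those of Cox7a1, Cycs and Cox5a were -0.057, -0.033 and -0.035, each smaller than its SE of about 0.10. Those of Atp5g1 and Cox6b1 were -0.029 and -0.011. Cox6a1 had 0.47 (SE 0.18, limma adjusted p = 0.217) and Cox6b2 0.68 (SE 0.16, limma adjusted p = 0.154). This scale moves all genes upward in paced mice, with 7 lower and 2524 higher at an unadjusted p under 0.05, against 442 and 620 on the deposited scale. That split was 148 and 969 with equal FPKM sums, 609 and 514 with equal medians, and 581 and 537 with equal quantiles. On those scales 35, 40 and 30 of the 43 members had a lower mean.

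**Figure D5:**
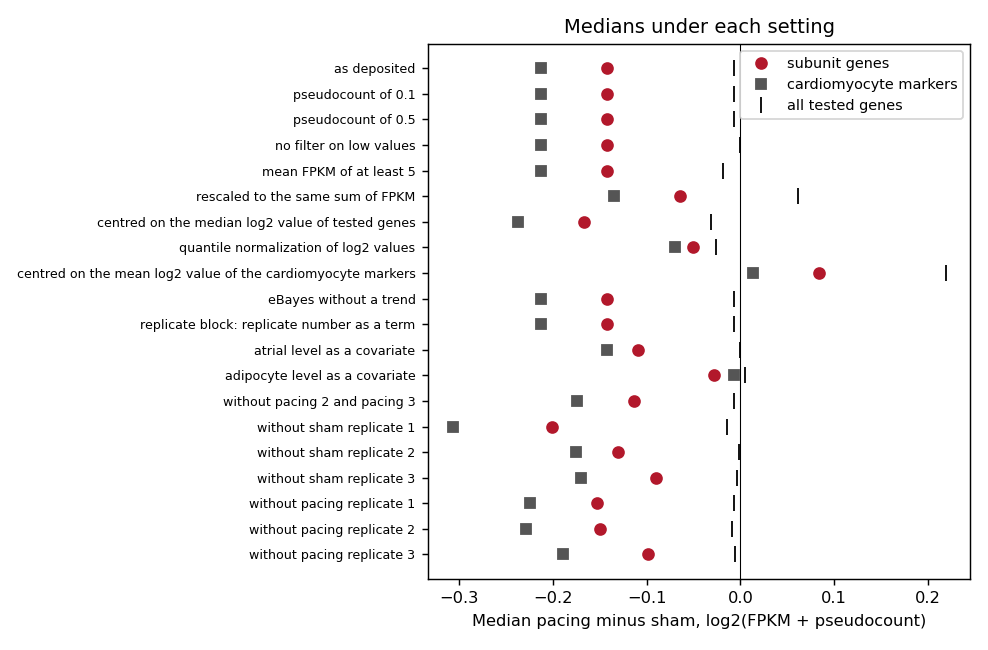
Median log2 change of the tested members, of the cardiomyocyte markers and of all tested genes under each setting. The median of the members is negative in 18 of 19 alternatives and positive, at 0.084, where mice are centred on cardiomyocyte markers.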

How the data were processed

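Ventricular polyA RNA of 6 mice was sequenced as stranded paired-end libraries of 151 bases, per the labels. Per the submitters' processing notes, the mm10 build was used with TopHat2 2.1.0 and Bowtie2 2.2.6, then Cufflinks and Cuffdiff, after FastQC 1.0.0. The annotation, not given in the sources used here, could move single values. Per gene and mouse the authors deposited an FPKM value, with 0.01 as the floor, and a comparison table with an FPKM per group, a log2 fold change and a q-value per gene, per the file headers. From these, log2(FPKM + 1) was tested with limma 3.58.1 in R 4.3.3 (two-sided, no term besides group, eBayes with a trend, Benjamini-Hochberg adjustment over the 11994 genes whose mean reached 1 FPKM). Because FPKM is not a count, no count model was fitted. 1 row with a failed estimate was left out.

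Fold changes are pacing minus sham and understate changes of low genes. The series design describes separate animals, so p-values measure the spread between mice. No library was a copy of another. Isoform ratios, log2 of (FPKM + 1) over (FPKM + 1), were compared by exact permutation over mice. Depth came from 641 single-exon genes of 800 to 3000 bases, whose values under 10 fragments were whole within 0.05 of a fragment when lengths were shortened by 168 bases. Counting error at 10 fragments is 31.6%. Gene positions and overlaps are from GENCODE, all 45 members matched. The deposited loci of 5 members, Atp5d, Cox6a2, Cox4i2, Atp5j and Atp5f1, span more than 1.5 times their gene. Whether this moved their values was not tested. Near-identical copies are other annotated transcripts with at least 98% identity over 151 bases (BLAST 2.17.0), found for 11 members. The counting strand is not given, so the 13 members with a gene on the opposite strand are uncertain.

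Members and lists were chosen with earlier results of these data known. Values in every mouse are given for the isoform genes and, per complex, the 3 smallest p and the highest mean; of other lists up to 2 genes with the smallest p. Ppargc1a, Nrf1, Cox6b1, Cox7c, Cox7a2l and Cox6c were named after their values were seen. Alternatives were other pseudocounts, filters, scalings, eBayes without a trend, a block, atrial and adipocyte covariates, an adjusted p under 0.1, a q-value under 0.01 and mice left out. The gene test was checked on simulated data. Skeletal muscle markers summed to 5.51 to 10.6 FPKM in sham and 7.91 to 8.40 in paced mice, and erythroid markers to 85.3 to 140.2 and 159 to 324. Promoter windows were found for 35 of 45 members.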

Additional observations from a re-analysis of the deposited data

How the results depend on the processing

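No member passed an adjusted p under 0.05 with limma in any of 20 alternatives, including an adjusted p under 0.1, where on the deposited scale 3 were lower and 1 higher at an unadjusted p under 0.05. The authors' deposited table called 0 members at a q-value under 0.01 too. Centring on cardiomyocyte markers reversed the median log2 change to 0.084. At an unadjusted p under 0.05, 0 members were then lower and 2 higher, against 0.0584% and 21% of all tested genes. On that scale 0 members had every paced mouse below every sham mouse. With an atrial covariate, the mean log2 level of Myl7, Myl4 and Sln, the median was -0.109, with 40 members lower and 3 higher. The median was -0.064 with the same FPKM sum and moved to -0.050 with quantile normalization and to -0.028 with the adipocyte covariate. With that covariate 0 members were lower and 0 higher at an unadjusted p under 0.05, against 1.38% and 2.03% of all tested genes. The count of lower members was 5 with a filter at 5 FPKM, 6 after centring on medians and 5 without a trend, where 4.25%, 5.08% and 3.34% of all genes tested were lower. Without pacing 2 and pacing 3 the median log2 change was -0.114, and 15 members were without overlap, against 25.6% of all genes. That setting compares pacing 1 alone with 3 sham mice, so its spread comes from the sham mice, and pacing 1 is assumed to vary like them. Leaving out 1 mouse at a time gave 1 to 14 lower and 1 to 2 higher at an unadjusted p under 0.05. The shares of all tested genes were 2.46% to 6.12% lower and 3.42% to 8.3% higher. In these settings 9 to 26 members were without overlap (11.3% to 16.5% of all genes), with medians from -0.20 to -0.09. The highest counts came without sham 1, and without pacing 1 or pacing 3 only 1 was lower. The causes were not tested.

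With the replicate number as a block, 1 member was lower at an unadjusted p under 0.05, against 2.63% of all tested genes. Same-numbered mice did not deviate together (correlations from -0.13 to -0.02), and 0 of 6 mice correlated best with the mouse of the same number in the other group. The values thus gave no sign of a pairing by number, but with so few mice they cannot exclude it. The 5 isoform ratios kept their direction with other pseudocounts and with each mouse left out. Their differences then ranged from -0.59 to -0.23 for subunit 6a, -0.19 to -0.14 for 7a, -0.26 to -0.11 for 8, 0.01 to 0.23 for subunit 4 and -0.12 to -0.06 for Atp5g1. Depth limits the genes at low levels, Cox6b2 above all.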
